A study of Canis lupus familiaris with 24 samples.

Results

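The comparison described here sets MDCK-II cells treated with TGFb to day 4 against untreated MDCK-II cells at day 0. The members are 6 of the 24 mRNA libraries of the study, 3 in each group, chosen by cell line, treatment and day as the labels give them. MDCK-II is a subline of MDCK, an epithelial cell line from dog kidney, and the second subline of the study is MDCK-NBL2. The TGFb-treated group is labelled partial EMT, and the untreated group of day 0 is labelled epithelial. Untreated MDCK-II cells of day 4, with 3 libraries and also labelled epithelial, were used to tell apart genes that moved with TGFb from genes that moved with time in culture. Against day 0 alone, treatment and 4 days of culture cannot be told apart. Replicates carry numbers, with no statement that they were separate cultures, so every p-value measures the spread between these libraries, which may be technical. In such bulk RNA, a change in the share of cells that express a gene and a change in RNA per cell cannot be told apart.

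TGFb is a secreted cytokine that binds receptor kinases, which phosphorylate SMAD proteins that enter the nucleus and turn genes on or off. In kidney epithelium it is known for driving epithelial-mesenchymal transition (EMT), in which polarized cells give up cell-cell contacts and make matrix and contractile proteins, and for slowing the cell cycle. In a partial transition, epithelial and mesenchymal genes are expressed side by side.

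Whole-number gene counts summed to between 8991167 and 27500500 per library in the TGFb-treated group, between 8019068 and 27123727 in untreated cells of day 4 and between 7633467 and 23297302 at day 0. Levels are counts per 1000000 (CPM) after scaling of library sizes, and each log2 fold change is TGFb day 4 minus day 0 with its standard error (SE) unless another pair is named. On the first principal component, which held 52.2% of the variance, the TGFb-treated libraries lay between 53.5 and 58.5, the untreated libraries of day 4 between -29.1 and -8.34 and the day 0 libraries between -37.8 and -29.6. On the second, with 24.8%, untreated day 4 replicate 1 lay at -64, against -13 and -16.2 for replicates 2 and 3 of its group. Counts that change by over 1.5 times without that library are therefore given both ways. The epithelial markers CDH1 and EPCAM were high in all 9 libraries, at 991 to 1100 and 371 to 513 CPM with TGFb, 1100 to 1300 and 396 to 530 CPM untreated at day 4 and 959 to 988 and 475 to 576 CPM at day 0. The kidney marker PAX8 was also present in every library, at 124 to 147 CPM with TGFb, 173 to 341 CPM untreated at day 4 and 143 to 158 CPM at day 0, whereas the tubule cadherin CDH16 stayed at 0.317 to 1.26 CPM with TGFb, 1.41 to 21.8 CPM untreated at day 4 and 0.5 to 0.764 CPM at day 0.

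Of 11902 genes tested, 2626 were higher with TGFb at day 4 than at day 0 (22.1%) and 2395 were lower (20.1%), at an adjusted p under 0.05. The median log2 fold change over all tested genes was 0.016. When a change of at least 2-fold was also asked for, 1122 were higher and 563 were lower. Against untreated cells of day 4, 1928 genes were higher with TGFb (16.2%) and 1687 were lower (14.2%). Between untreated cells of day 4 and day 0, 1006 genes were higher at day 4 (8.45%) and 844 were lower (7.09%). The 3 comparisons share libraries in pairs, so their calls are not independent, and the classes below are descriptions built from those calls. List counts below are to be read beside these shares of all tested genes.

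Genes that ended above both untreated groups made up the largest of the 6 classes. This class held 1438 genes (12.1% of those tested), called higher with TGFb than at day 0 and than untreated at day 4. Its counterpart, below both untreated groups, held 1104 genes (9.28%). A separate class of 152 genes (1.28%) had the VCAN pattern, in which untreated cells of day 4 were below day 0 while TGFb-treated cells were above untreated day 4 and were not called against day 0. For these genes the 95% interval of the log2 fold change from day 0 also lay inside -1 to 1. The mirror class of 160 genes (1.34%) was higher in untreated cells of day 4 than in either of the other groups, with the same limits on the change from day 0 with TGFb. Finally, 485 genes (4.07%) were higher and 372 (3.13%) were lower at day 4 than at day 0 with TGFb and without it, and were not called between the day 4 groups. A further 661 higher and 908 lower genes were called only between TGFb day 4 and day 0. Without untreated day 4 replicate 1, the classes above and below both untreated groups held 2245 and 1932 genes. Without TGFb replicate 2, the deepest treated library, 1492 genes were lower than at day 0, 635 were below both groups, and the VCAN-like and mirror classes held 85 and 106. Leaving out day 0 replicate 1, 2 or 3 left 53, 60 or 79 VCAN-like genes and 65, 70 or 79 genes of the mirror class.

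The panels of selected genes show the patterns library by library.

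**Figure D1:**
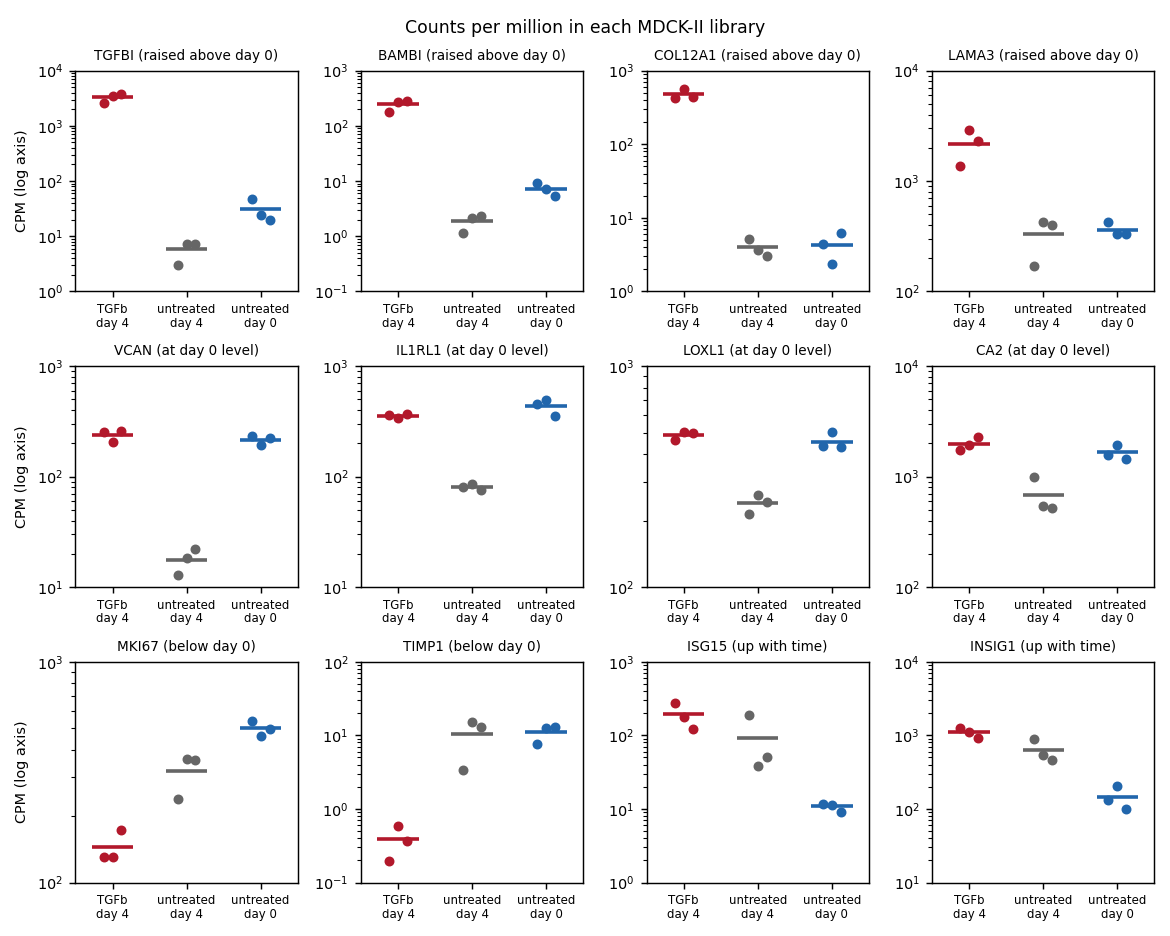
Level of 12 genes in each of the 9 MDCK-II libraries, in CPM on a log axis, with a dot per library and a line at the group mean. TGFBI, BAMBI, COL12A1 and LAMA3 lie above both untreated groups with TGFb, VCAN, IL1RL1, LOXL1 and CA2 lie near their day 0 level while untreated day 4 is lower, MKI67 and TIMP1 lie below, and ISG15 and INSIG1 are high in both day 4 groups.

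Most ligand and latency genes of the TGFb family were higher than at day 0. Of 11 tested, 8 rose, the latency genes LTBP1 and LTBP3 among them, and 1 fell, with a median log2 fold change of 0.90, and 7 of the 8 were also above untreated day 4. The ligands TGFB1, with a change of 0.29 ± 0.22 (adjusted p = 0.31), and INHBA, with 0.44 ± 0.52 (adjusted p = 0.52), did not pass. TGFB2, a TGFb ligand, was at 202, 304 and 257 CPM with TGFb, at 35.2, 55 and 69.1 CPM untreated at day 4 and at 86.8, 74.4 and 86 CPM at day 0 (log2 fold change 1.63 ± 0.23, adjusted p = 0.00053). Its treated libraries did not overlap either untreated group. BMP2, a bone morphogenetic protein, was at 46.2, 36.2 and 54.8 CPM with TGFb, at 11.2, 16.3 and 15.7 CPM untreated at day 4 and at 13.3, 11.5 and 11.7 CPM at day 0, a rise of 1.90 ± 0.19 (adjusted p = 9.2e-05). BMP4 behaved differently with time: it was at 174, 189 and 191 CPM with TGFb, at 34.4, 38.8 and 33.9 CPM untreated at day 4 and at 98, 95.7 and 103 CPM at day 0. It rose by 0.90 ± 0.09 with TGFb (adjusted p = 8.8e-05), while untreated cells fell by 1.46 ± 0.09 over the same days (adjusted p = 9.4e-05). LTBP1, which binds latent TGFb in the matrix, rose by 1.10 ± 0.10 to a mean of 2470 ± 197 CPM, against 1150 ± 25.5 CPM at day 0 (SD, n = 3 each). Its relative LTBP4 fell by 1.54 ± 0.15, with 7.84 ± 1.04 CPM with TGFb and 22.4 ± 2.08 CPM at day 0 (SD, n = 3 each).

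Of 10 receptors, 3 rose and 2 fell, with a median of -0.08, shares near the 22.1% higher and 20.1% lower among all tested genes. BMPR2, a type II BMP receptor, rose by 1.08 ± 0.16 (adjusted p = 0.00069), to 60.4 ± 4.26 CPM with TGFb against 28.5 ± 2.85 CPM at day 0. ACVR1, a type I receptor, rose by 0.53 ± 0.13 (adjusted p = 0.0097). TGFBR3, the co-receptor betaglycan, fell to 4.67, 7.89 and 9.84 CPM with TGFb, against 17.3, 22.7 and 22.2 CPM at day 0 (log2 fold change -1.48 ± 0.36, adjusted p = 0.0095). TGFBR1, the type I TGFb receptor, sat at the threshold, at 0.36 ± 0.13 (adjusted p = 0.047), and lost its call without 7 of the 9 libraries in turn, with adjusted p up to 0.15.

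Feedback inhibitors included genes above the start, genes at the start and 1 below it. Of 15 SMAD and feedback genes, 6 rose and 1 fell with a median of 0.18, and 3 had the VCAN pattern. The gene that fell was FST, described further below. Of the 6 that rose, 5 were also above untreated day 4, while SMAD1 was up with time in both day 4 groups. All tested genes had 22.1% higher and 20.1% lower. BAMBI, a decoy receptor, was at 181, 270 and 286 CPM with TGFb, at 1.16, 2.12 and 2.34 CPM untreated at day 4 and at 9.1, 7.2 and 5.35 CPM at day 0. It rose by 5.06 ± 0.26 (adjusted p = 6e-06), although untreated cells fell by 1.96 ± 0.30 (adjusted p = 0.0039). SMAD7, an inhibitory SMAD, rose by 2.30 ± 0.18 (adjusted p = 3.1e-05) and also fell untreated, by 1.10 ± 0.20 (adjusted p = 0.0076). PMEPA1, which sequesters receptor-regulated SMADs, rose by 1.78 ± 0.13 (adjusted p = 2.8e-05), and the SMAD co-repressor SKIL rose by 1.11 ± 0.12 (adjusted p = 0.00017). The related co-repressor SKI was instead at 92.2, 107 and 111 CPM with TGFb, at 67.7, 71.2 and 71.3 CPM untreated at day 4 and at 100, 89.5 and 90.8 CPM at day 0. Its treated and day 0 libraries overlapped, with a change of 0.14 and a 95% interval of -0.07 to 0.36. SMAD6, the inhibitory SMAD of BMP signalling, likewise had a change of 0.16 with an interval of -0.25 to 0.57.

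Well-known TGFb targets stood far above the start. Of 12 in the list, 9 rose and none fell by edgeR, with a median of 1.88, and all 9 were above untreated day 4 as well. TGFBI, a secreted matrix protein, was at 2540, 3520 and 3790 CPM with TGFb, at 3.02, 7.14 and 7.25 CPM untreated at day 4 and at 47.4, 24.6 and 20 CPM at day 0. The rise from day 0 was 6.74 ± 0.44 (adjusted p = 1.4e-05), and untreated cells fell by 2.40 ± 0.39 (adjusted p = 0.0053). The change of TGFBI from day 0 was thus smaller than its difference from untreated day 4, which was 9.14 ± 0.49. In all, 106 genes shared the calls of TGFBI, above both groups with TGFb while untreated cells of day 4 were below day 0. NEDD9, a scaffold protein of focal adhesions, rose by 2.78 ± 0.14 (adjusted p = 5.4e-06), to 76.5 ± 12.1 CPM with TGFb against 14.1 ± 0.871 CPM untreated at day 4 and 11.1 ± 0.884 CPM at day 0 (SD, n = 3 each). NEDD9 was not called between the untreated groups (adjusted p = 0.11). CCN2, a matricellular target, did not pass, at 0.79 ± 0.38 (adjusted p = 0.13); it passed without untreated day 4 replicate 1 (0.81, adjusted p = 0.033) and without TGFb replicate 1 (1.09, adjusted p = 0.035).

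Transcription factors of EMT differed in whether they rose above the start. Of 9 tested, 5 rose and 1 fell, with a median of 0.72, beside 22.1% higher and 20.1% lower among all tested genes. Without untreated day 4 replicate 1, 8 rose, and 3 rose without day 0 replicate 1 or 2 or TGFb replicate 2. PRRX1, a homeobox factor that drives EMT, was at 4.09, 6.34 and 3.28 CPM with TGFb, at 0.542, 1.1 and 1.48 CPM untreated at day 4 and at 0.364, 0.25 and 0.255 CPM at day 0. The 3 groups did not overlap, and PRRX1 rose by 3.98 ± 0.45 (adjusted p = 0.00017); untreated cells also rose over the 4 days, by 1.79 ± 0.49 (adjusted p = 0.038). ZEB1, a repressor of CDH1, was at 7.59, 14.4 and 10.8 CPM with TGFb, at 0.542, 1.24 and 1.23 CPM untreated at day 4 and at 4.66, 2.33 and 4.08 CPM at day 0. ZEB1 rose by 1.61 ± 0.35 (adjusted p = 0.0051), while untreated cells fell by 1.82 ± 0.41 (adjusted p = 0.019). ZEB1 was not called when the spread was estimated over all 24 libraries of both lines (1.56, adjusted p = 0.10). ZEB2, its relative, was too low to be tested, with 10, 35 and 4 counts with TGFb, 1, 0 and 0 untreated at day 4 and 1, 1 and 1 at day 0. The ratio of its counts per library size between TGFb and day 0 was 17, with a 95% counting interval of 5.49 to 85.4 that covers counting error only. SNAI2 was at 53.1, 130 and 103 CPM with TGFb, at 8.6, 51.8 and 47.6 CPM untreated at day 4 and at 36.1, 35.4 and 32.1 CPM at day 0. Its rise of 1.47 ± 0.53 only just passed (adjusted p = 0.049) and was lost in 6 of the 9 leave-one-out fits, with adjusted p up to 0.15. SNAI1 was at 11.8, 16 and 11.8 CPM with TGFb and 8.96, 9.49 and 5.22 CPM at day 0, and its change of 0.72 ± 0.37 was not called (adjusted p = 0.15; 0.017 without untreated day 4 replicate 1 and 0.022 in a fit of the TGFb and day 0 libraries alone). SOX4, which acts in TGFb-driven EMT, rose by 1.87 ± 0.34 (adjusted p = 0.002). Between the day 4 groups, whose same-numbered libraries deviated partly alike, SOX4 differed by 0.84 ± 0.32 without a replicate block (adjusted p = 0.076, not called) and by 0.90 ± 0.23 with one (adjusted p = 0.019, called).

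Junction and epithelial genes moved both ways around a median near 0. Of 30 junction genes, 9 rose and 4 fell, with a median of 0.07, beside 22.1% higher and 20.1% lower among all tested genes. CDH1, the epithelial cadherin, was at 1100, 1070 and 991 CPM with TGFb, at 1300, 1100 and 1120 CPM untreated at day 4 and at 988, 959 and 984 CPM at day 0. Its change of 0.11 ± 0.10 was not called (adjusted p = 0.43), with a 95% interval of -0.12 to 0.34. The desmosome genes DSP and JUP rose, DSP by 0.95 ± 0.11 (adjusted p = 0.00022) and JUP by 0.88 ± 0.12 (adjusted p = 0.00037), and their treated libraries lay above all untreated ones. CGN, the tight-junction protein cingulin, fell to 117, 92.1 and 100 CPM with TGFb, against 251, 219 and 217 CPM untreated at day 4 and 177, 204 and 190 CPM at day 0 (log2 fold change -0.89 ± 0.11, adjusted p = 0.00034). CLDN16, a claudin of the renal tubule, fell by 1.32 ± 0.14 (adjusted p = 0.00014) and also fell in untreated cells, by 0.75 ± 0.14 (adjusted p = 0.0089). CLDN3 had the mirror pattern, with 69.1, 50.7 and 47.2 CPM with TGFb, 115, 88.3 and 83.2 CPM untreated at day 4 and 51.6, 58.7 and 53.6 CPM at day 0. The gain of CLDN3 over time, 0.80 ± 0.16 in untreated cells (adjusted p = 0.013), was therefore not called in treated cells, whose change was 0.02 with an interval of -0.34 to 0.39.

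Among 20 epithelial regulators and keratins, 6 rose and 6 fell, with a median of 0.03, beside 22.1% higher and 20.1% lower among all tested genes. Only 2 fell without day 0 replicate 2 or TGFb replicate 2 or 3. PRSS8, the membrane protease prostasin, rose by 1.54 ± 0.12 (adjusted p = 3.6e-05), to 48.4 ± 5.91 CPM with TGFb against 16.6 ± 1.57 CPM at day 0. OVOL1, a transcription factor that restrains EMT, fell by 1.35 ± 0.32 (adjusted p = 0.0076), to 5.84, 3.29 and 2.06 CPM with TGFb against 9.1, 11.7 and 7.39 CPM at day 0. EHF, an epithelial ETS factor, was at 136, 90.7 and 103 CPM with TGFb, at 270, 161 and 186 CPM untreated at day 4 and at 96.9, 112 and 102 CPM at day 0, so that its treated libraries overlapped those of day 0 and lay below those of untreated day 4. The protease ST14 had the reverse arrangement, at 83, 72.3 and 79.9 CPM with TGFb, 55, 63.2 and 57.5 CPM untreated at day 4 and 81.9, 78.2 and 74.4 CPM at day 0. Its interval for the change from day 0 was -0.21 to 0.21.

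Of 16 mesenchymal and contractile genes, 7 rose and 1 fell, with a median of 0.58, beside 22.1% higher and 20.1% lower among all tested genes. CDH2, the cadherin of mesenchymal and proximal tubule cells, was at 16.8, 18 and 14.2 CPM with TGFb, at 2.09, 6.64 and 7.38 CPM untreated at day 4 and at 5.46, 3.46 and 5.1 CPM at day 0 (log2 fold change 1.84 ± 0.38, adjusted p = 0.0038). CALD1, an actin-binding protein of contractile cells, was at 1.36, 8.17 and 6.92 CPM with TGFb and had no count in any untreated library of either day. It was at least 96.3-fold higher with TGFb than at day 0, taking 3 counts over the group as the floor. CNN2, a calponin, rose by 2.51 ± 0.49 (adjusted p = 0.0031) while untreated cells fell by 3.05 ± 0.72 (adjusted p = 0.022). TPM1, a tropomyosin, rose by 0.75 ± 0.12 (adjusted p = 0.0011), a call that was lost in the fit over all 24 libraries (0.71, adjusted p = 0.22), as was that of CDH2 (1.79, adjusted p = 0.12). VIM, the intermediate filament vimentin often used as a mesenchymal marker, was at 5730, 7760 and 6690 CPM with TGFb, at 3350, 6120 and 5750 CPM untreated at day 4 and at 7890, 6980 and 7540 CPM at day 0. VIM was already abundant at day 0, and its change of -0.15 ± 0.22 was not called (adjusted p = 0.61, interval -0.65 to 0.35).

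Matrix genes rose and none was called lower in the lists of collagens, collagen processing, glycoproteins, proteoglycans and laminins. Collagens had 6 of 11 higher with a median of 1.35, glycoproteins 6 of 12 with a median of 0.97, proteoglycans and hyaluronan genes 8 of 12 with a median of 1.06 and laminins 4 of 6 with a median of 0.95. All called members of these 4 lists were also above untreated day 4, and 5 other genes, counting collagen processing, had the VCAN pattern. The counts of lower genes in these lists were 0 by edgeR, by DESeq2 and at an unadjusted p under 0.05; without untreated day 4 replicate 1, 1 laminin chain, LAMB2, was called lower.

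**Figure D2:**
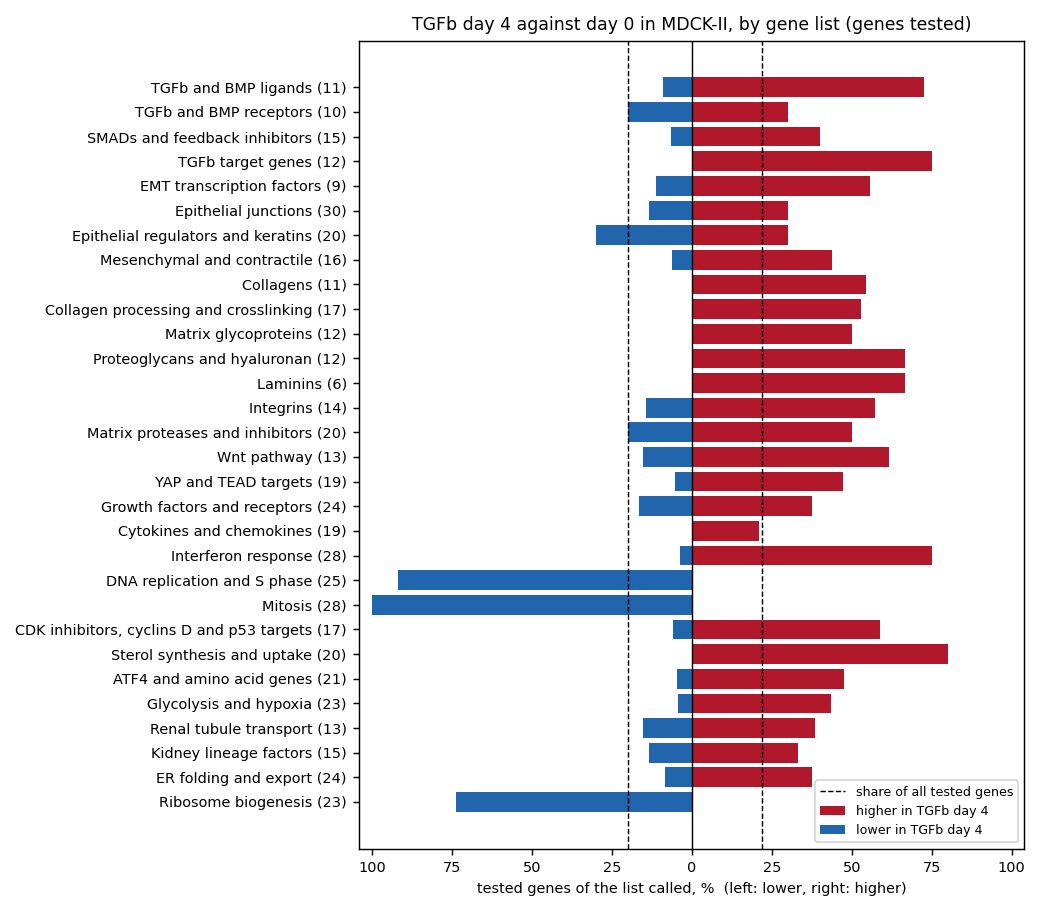
Share of the tested genes of each list drawn that were higher (right, red) or lower (left, blue) with TGFb at day 4 than at day 0, in percent, with the number tested in brackets. Dashed lines mark the shares of all 11902 tested genes, 22.1% higher and 20.1% lower; the mitosis and S phase lists lie wholly to the left. Among lists with 10 or more tested genes the sterol, interferon, target and ligand lists reach farthest to the right. The endothelial, fibroblast and leukocyte marker lists, with 3, 1 and 2 tested genes, are not drawn.

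Collagen XII had the largest rise among the tested collagens. COL12A1, which lies on the surface of collagen fibrils, was at 420, 566 and 440 CPM with TGFb, at 5.19, 3.71 and 3.07 CPM untreated at day 4 and at 4.37, 2.37 and 6.24 CPM at day 0 (log2 fold change 6.89 ± 0.33, adjusted p = 5.2e-06). The basement membrane chains COL4A1 and COL4A2 rose by 2.68 ± 0.20 (adjusted p = 2.8e-05) and 2.49 ± 0.22 (adjusted p = 5.7e-05). Neither was called between the untreated groups. COL5A1, a chain of fibrillar collagen V, was at 335, 369 and 436 CPM with TGFb, at 84.1, 37.4 and 37.4 CPM untreated at day 4 and at 134, 162 and 151 CPM at day 0. COL5A1 rose by 1.35 ± 0.28 above day 0 (adjusted p = 0.0043) while untreated cells fell by 1.49 ± 0.29 (adjusted p = 0.0098), so that the day 4 groups differed by 2.84 ± 0.30. COL5A3, another collagen V chain, was not called against day 0, with a change of -0.08 and an interval of -0.63 to 0.48, at only 2.75 ± 0.332 CPM with TGFb and 2.90 ± 0.731 CPM at day 0 (SD, n = 3 each).

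Enzymes that process collagen showed the same division. Of 17 tested, 9 rose, none fell and the median was 0.82. BMP1, which cleaves procollagen, was at 233, 312 and 279 CPM with TGFb, at 31.4, 34.4 and 35 CPM untreated at day 4 and at 37.7, 29.1 and 32.9 CPM at day 0, a rise of 3.05 ± 0.14 (adjusted p = 4.2e-06). The crosslinking oxidase LOXL2 rose by 1.79 ± 0.22 (adjusted p = 0.00029) and the lysyl hydroxylase PLOD1 by 1.54 ± 0.11 (adjusted p = 2.4e-05). P4HA2, a prolyl hydroxylase, rose by 0.85 ± 0.11 (adjusted p = 0.00029), while untreated cells fell by 0.61 ± 0.11 (adjusted p = 0.0069). LOXL1, a second crosslinking oxidase, was at 462, 506 and 499 CPM with TGFb, at 215, 260 and 242 CPM untreated at day 4 and at 433, 501 and 431 CPM at day 0. The treated libraries of LOXL1 overlapped those of day 0, with an interval of -0.13 to 0.34 for the change, and lay above all of untreated day 4.

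The glycoproteins FN1 and THBS1 were abundant and rose. FN1, fibronectin, was at 7490, 15900 and 9520 CPM with TGFb, at 493, 971 and 695 CPM untreated at day 4 and at 933, 615 and 1050 CPM at day 0, a rise of 3.66 ± 0.37 (adjusted p = 9.8e-05). The untreated groups overlapped (adjusted p = 0.60). THBS1, a thrombospondin that can activate latent TGFb, was at 2680, 4760 and 5000 CPM with TGFb, at 292, 364 and 434 CPM untreated at day 4 and at 1020, 1100 and 853 CPM at day 0, with a rise of 2.06 ± 0.25 (adjusted p = 0.00024). Untreated cells fell by 1.45 ± 0.24 for THBS1 (adjusted p = 0.0058).

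VCAN and GPC1 had the pattern of a level at the start, whereas other proteoglycans exceeded it. VCAN, the large matrix proteoglycan versican, was at 251, 206 and 258 CPM with TGFb, at 12.8, 18.2 and 22.1 CPM untreated at day 4 and at 233, 192 and 224 CPM at day 0. Untreated cells had fallen by 3.62 ± 0.20 (adjusted p = 3.9e-05), and the difference of 3.76 ± 0.20 between the day 4 groups (adjusted p = 3.9e-06) was therefore not a rise over the start. Against day 0 the change was 0.14 ± 0.17 (adjusted p = 0.54) with a 95% interval of -0.25 to 0.53, and it ranged from 0.06 to 0.26 when each library was left out in turn. GPC1, a cell-surface heparan sulfate proteoglycan, was at 97.6, 118 and 112 CPM with TGFb, at 25.6, 41.6 and 28.2 CPM untreated at day 4 and at 102, 92.8 and 83.2 CPM at day 0, with an interval of -0.15 to 0.62. GPC4, of the same family, was at 24.3, 30.2 and 40.4 CPM with TGFb, at 2.79, 2.23 and 1.23 CPM untreated at day 4 and at 1.46, 1.21 and 1.27 CPM at day 0, and rose by 4.59 ± 0.29 (adjusted p = 1.3e-05). Among the syndecans, SDC3 rose by 2.79 ± 0.39 (adjusted p = 0.00052), SDC1 by 1.39 ± 0.12 (adjusted p = 5.4e-05) and SDC4 by 0.75 ± 0.11 (adjusted p = 0.00062).

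Laminin chains split by chain. LAMA3 and LAMB3, chains of the epithelial laminin of hemidesmosomes, rose by 2.59 ± 0.37 (adjusted p = 0.00055) and 2.24 ± 0.20 (adjusted p = 5.5e-05). LAMB3 also rose in untreated cells, by 0.96 ± 0.19 (adjusted p = 0.011). LAMC1, the gamma chain of most other laminins, was at 501, 477 and 663 CPM with TGFb, at 285, 316 and 320 CPM untreated at day 4 and at 568, 569 and 549 CPM at day 0. LAMC1 thus lay around its day 0 level with TGFb, with an interval of -0.33 to 0.25, whereas its partner LAMB1 rose by 0.75 ± 0.11 (adjusted p = 0.00068).

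**Figure D3:**
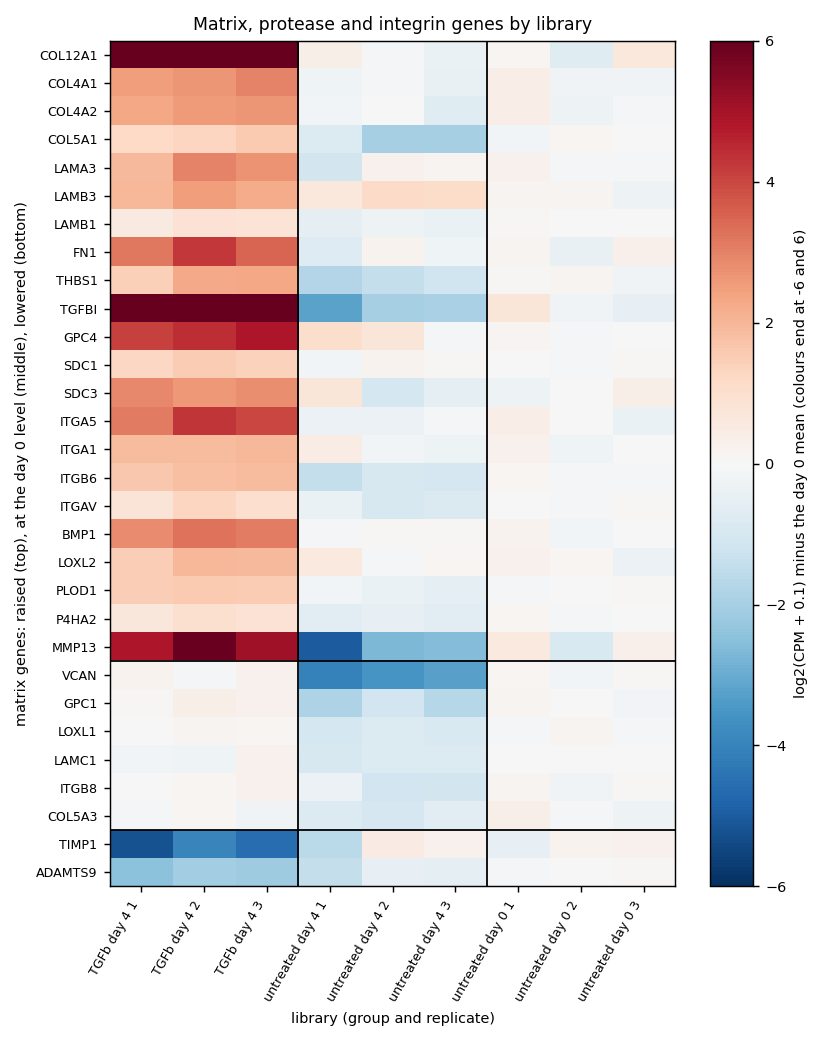
Matrix, collagen-processing, protease and integrin genes in each of the 9 MDCK-II libraries, as log2(CPM + 0.1) minus the day 0 mean of the gene, with colours ending at -6 and 6. Genes above both untreated groups are at the top, genes at their day 0 level with TGFb in the middle (pale in the treated and day 0 columns, blue in untreated day 4) and lowered genes at the bottom.

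Integrins, the receptors for these matrix proteins, had 8 of 14 members higher and 2 lower, with a median of 0.82. All tested genes had 22.1% higher and 20.1% lower. ITGA5, the fibronectin receptor subunit, was at 46.5, 105 and 84.4 CPM with TGFb, at 4.1, 4.1 and 4.92 CPM untreated at day 4 and at 6.92, 5.25 and 3.95 CPM at day 0, a rise of 3.85 ± 0.31 (adjusted p = 3.6e-05). ITGB6, a subunit of the integrin that releases active TGFb, rose by 1.76 ± 0.14 (adjusted p = 3.3e-05) although untreated cells fell by 1.11 ± 0.14 (adjusted p = 0.0017). Its partner ITGAV rose by 1.04 ± 0.17 (adjusted p = 0.0011). ITGB8, an alternative partner of ITGAV, was at 93.1, 102 and 112 CPM with TGFb, at 72, 41.3 and 43.8 CPM untreated at day 4 and at 104, 80.1 and 96.7 CPM at day 0, with an interval of -0.31 to 0.58 for its change from day 0.

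Proteases and their inhibitors had members that rose and members that fell. Of 20 tested, 10 rose and 4 fell, with a median of 0.78, beside 22.1% higher and 20.1% lower among all tested genes. The count of lower members was thus near the share of all genes, and 6 rose without day 0 replicate 1. MMP13, a collagenase, was at 898, 1880 and 1050 CPM with TGFb, at 0.852, 4.67 and 4.92 CPM untreated at day 4 and at 45.7, 16.3 and 38.3 CPM at day 0. It rose by 5.27 ± 0.56 (adjusted p = 0.00013) against day 0 and fell by 3.24 ± 0.57 in untreated cells (adjusted p = 0.0071). TIMP1, an inhibitor of metalloproteinases, showed the largest fall among the genes below both groups with a symbol, no overlap with day 0 and 10 CPM or more in the higher group. It was at 0.195, 0.595 and 0.364 CPM with TGFb, at 3.41, 15.3 and 12.9 CPM untreated at day 4 and at 7.57, 12.6 and 13.1 CPM at day 0, a change of -4.63 ± 0.64 (adjusted p = 0.0005; -5.28 without TGFb replicate 2). ADAMTS9, which cleaves versican and aggrecan, fell by 2.21 ± 0.22 (adjusted p = 9.9e-05), to 33.8, 44.5 and 42.8 CPM with TGFb against 178, 186 and 198 CPM at day 0.

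Wnt genes had 8 of 13 members higher and 2 lower, with a median of 0.87. For this list and the next ones, the shares of all tested genes were 22.1% higher and 20.1% lower. WNT5B, a ligand of the non-canonical branch, was at 37.1, 60.2 and 42.4 CPM with TGFb, at 0.31, 0.106 and 0.369 CPM untreated at day 4 and at 0.947, 0.833 and 1.15 CPM at day 0, a rise of 5.63 ± 0.28 (adjusted p = 5.4e-06). WNT5A rose by 4.26 ± 0.48 (adjusted p = 0.00018) and the receptor FZD2 by 2.55 ± 0.30 (adjusted p = 0.00022). TCF7, a transcription factor of the canonical branch, fell by 1.47 ± 0.13 (adjusted p = 6.8e-05). Growth factors and their receptors had 9 of 24 higher and 4 lower, with a median of 0.42, and the count of lower genes was near the share of all tested genes. Without day 0 replicate 2, 1 was lower, and 2 were lower without TGFb replicate 1 or 2 or day 0 replicate 1 or 3. FGF1 was at 47.3, 87 and 81.5 CPM with TGFb, at 4.72, 2.33 and 2.09 CPM untreated at day 4 and at 2.48, 2.41 and 0.764 CPM at day 0, a rise of 5.12 ± 0.40 (adjusted p = 3.5e-05). PDGFB rose by 1.99 ± 0.21 (adjusted p = 0.00013) and the receptor FGFR1 by 1.38 ± 0.15 (adjusted p = 0.00016). VEGFA rose by 2.14 ± 0.25 (adjusted p = 0.00021) but also by 2.22 ± 0.25 in untreated cells (adjusted p = 0.0011). NRG1, a ligand of ERBB receptors, had the VCAN pattern, with an interval of -0.49 to 0.34. Of 19 targets of YAP and TEAD, 9 rose and 1 fell, with a median of 0.59. Of 19 cytokine and chemokine genes 4 rose and none fell by edgeR, with a median of 0.41, a share near the 22.1% of all tested genes, and 9 rose without untreated day 4 replicate 1. No member fell by DESeq2 or at an unadjusted p under 0.05 either, but 1, CXCL16, fell without TGFb replicate 2; ICAM1, a leukocyte adhesion molecule in that list, rose by 1.50 ± 0.30 (adjusted p = 0.0034).

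Outside the lists, genes nearly silent at the start made up much of the 10 largest rises. SLC22A2, which carries organic cations into renal tubule cells, was at 13.9, 7.41 and 22.3 CPM with TGFb and had a single count in each untreated group. Its count ratio to day 0 was 536, with a 95% counting interval of 95.7 to 21200; the fitted log2 fold change of 8.89 became 10.81 without day 0 replicate 1. PDLIM3, an actin-associated LIM protein, was at 21.2, 2.54 and 7.65 CPM with TGFb and had no count at day 0, so that it was at least 120-fold higher (adjusted p = 0.0016). TGFb replicate 1 was far above the others here, and the fitted log2 fold change of 10.31, which depends on the prior count, was 9.30 without it. KRT27, a keratin, was at 39.4, 13 and 15.2 CPM with TGFb, at 0 untreated at day 4 and at 0.0728, 0.0833 and 0.255 CPM at day 0, a rise of 7.56 ± 0.72 (adjusted p = 0.00021; 6.88 without TGFb replicate 1). FHOD3, a formin that builds actin filaments, was at 115, 101 and 118 CPM with TGFb, at 3.56, 0.424 and 0.123 CPM untreated at day 4 and at 3.28, 2.04 and 3.44 CPM at day 0, a rise of 5.32 ± 0.55 (adjusted p = 0.00012). CAPN14, a calpain protease, rose by 6.48 ± 0.75 (adjusted p = 0.00021). SLIT3, a secreted guidance ligand, rose by 5.68 ± 0.46 (adjusted p = 3.7e-05), whereas its relative SLIT2 fell by 2.73 ± 0.22 (adjusted p = 3.7e-05).

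Other genes with the VCAN pattern came from several functions. IL1RL1, the receptor of interleukin 33, was at 358, 341 and 371 CPM with TGFb, at 80.7, 85.2 and 76.1 CPM untreated at day 4 and at 452, 492 and 355 CPM at day 0. Its change from day 0 was -0.28 ± 0.12 (adjusted p = 0.092), and it was called lower without day 0 replicate 3 (-0.41, adjusted p = 0.018). CA2, a carbonic anhydrase, was at 1750, 1950 and 2270 CPM with TGFb, at 994, 543 and 517 CPM untreated at day 4 and at 1570, 1950 and 1450 CPM at day 0, with an interval of -0.28 to 0.81. KLHL3, an adaptor for ubiquitination that controls renal salt transport, was at 18.5, 28 and 27.4 CPM with TGFb, at 7.13, 9.05 and 5.66 CPM untreated at day 4 and at 23.8, 24.6 and 20.4 CPM at day 0. For EDN1, the vasoconstrictor endothelin 1, the treated libraries at 267, 356 and 248 CPM lay above those of day 0 at 217, 204 and 216 CPM, and the change of 0.45 ± 0.18 (adjusted p = 0.071) was called without untreated day 4 replicate 1 (0.47, adjusted p = 0.0066) and in a fit of the TGFb and day 0 libraries alone (0.44, adjusted p = 0.016). SLC22A5, the carnitine transporter, was also near the threshold, at 0.46 ± 0.19 (adjusted p = 0.077), and was called without day 0 replicate 1 (0.67, adjusted p = 0.021) or untreated day 4 replicate 1 (0.47, adjusted p = 0.035). CALR and PDIA4, chaperones of the endoplasmic reticulum, belonged here too, with intervals of -0.34 to 0.18 and -0.36 to 0.04. In their list of 24 folding and export genes 9 rose and 2 fell, with a median of 0.02, beside 22.1% higher and 20.1% lower among all tested genes. The collagen chaperone FKBP10 of that list rose by 0.68 ± 0.08 (adjusted p = 0.00023).

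Genes below both untreated groups included secreted antagonists and surface proteins beside the cell cycle. FST, follistatin, which binds activins, was at 27.2, 93.5 and 44.8 CPM with TGFb, at 77, 752 and 637 CPM untreated at day 4 and at 474, 503 and 522 CPM at day 0. It fell by 3.16 ± 0.72 (adjusted p = 0.0067; -3.77 without TGFb replicate 2), and the untreated day 4 library at 77 CPM was replicate 1. OSR1, a transcription factor of kidney development, fell to 32, 13.8 and 15.9 CPM with TGFb, against 141, 64 and 70.4 CPM untreated at day 4 and 151, 148 and 196 CPM at day 0 (log2 fold change -3.02 ± 0.38, adjusted p = 0.00032). SFTPD, a collectin, was at 8.75, 4.95 and 4.98 CPM with TGFb, at 90.1, 59.2 and 67.1 CPM untreated at day 4 and at 35.6, 50.8 and 45.7 CPM at day 0, and fell by 2.84 ± 0.26 (adjusted p = 6.8e-05). DLA-DQA1, a class II histocompatibility gene, fell by 2.39 ± 0.39 (adjusted p = 0.0012).

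Cell-cycle genes fell as a group. All 28 mitosis genes tested were lower with TGFb than at day 0, with a median of -1.54, and 27 of them were also below untreated day 4; 6 were lower in untreated cells of day 4 than at day 0. Of 25 replication and S phase genes, 23 fell and none rose by edgeR, with a median of -1.27, and 20 were below both groups. The counts of higher genes in both lists were also 0 by DESeq2 and at an unadjusted p under 0.05. MKI67, a marker of dividing cells, was at 131, 131 and 173 CPM with TGFb, at 238, 361 and 360 CPM untreated at day 4 and at 541, 461 and 494 CPM at day 0. With TGFb MKI67 fell by 1.78 ± 0.18 (adjusted p = 0.0001), and untreated cells fell by 0.64 ± 0.17 (adjusted p = 0.037). AURKB, a kinase of chromosome segregation, fell by 1.93 ± 0.12 (adjusted p = 1.4e-05), and GINS3, of the replicative helicase, by 1.24 ± 0.11 (adjusted p = 6.8e-05), without a call between the untreated groups for GINS3 (adjusted p = 0.72). Summed over the list, mitosis genes reached 1320, 1330 and 1800 CPM with TGFb, 2280, 3650 and 3740 CPM untreated at day 4 and 4810, 4130 and 5050 CPM at day 0. Untreated day 4 replicate 1 was the library of its group closest to the treated ones. CDKN1A, the cyclin-dependent kinase inhibitor p21, was at 901, 1030 and 1200 CPM with TGFb, at 164, 381 and 323 CPM untreated at day 4 and at 282, 251 and 244 CPM at day 0, a rise of 2.01 ± 0.27 (adjusted p = 0.00039). CDKN2C, the inhibitor p18, instead fell by 1.36 ± 0.13 (adjusted p = 6.8e-05). In the whole list of CDK inhibitors, cyclins D and p53 targets, 10 of 17 rose and 1 fell, with a median of 0.59. The shares of all tested genes were 22.1% higher and 20.1% lower, and 6 of the list rose without day 0 replicate 2. Ribosome biogenesis had 17 of 23 members lower and none higher (edgeR, DESeq2 and unadjusted p under 0.05 alike), with a median of -0.81, and 10 lower without TGFb replicate 2 or 11 without TGFb replicate 1 or day 0 replicate 2 or 3; UTP20, of the small-subunit processome, fell by 0.71 ± 0.10 (adjusted p = 0.00054).

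Several groups that were higher than at day 0 were also higher in untreated cells of day 4. Of all tested genes, 22.1% were higher with TGFb than at day 0, 20.1% were lower and 4.07% were in the class up with time. Sterol synthesis and uptake had 16 of 20 genes higher with TGFb, with a median of 0.67, 13 of which were in the class that moved with time, and only 1 of 20 was called higher between the day 4 groups, or 2 with a replicate block, where INSIG1 was added (0.84 ± 0.22, adjusted p = 0.021). INSIG1, which retains the sterol-sensing complex in the endoplasmic reticulum, was at 1270, 1120 and 928 CPM with TGFb, at 888, 537 and 461 CPM untreated at day 4 and at 134, 202 and 99.6 CPM at day 0. It rose by 2.93 ± 0.31 with TGFb (adjusted p = 0.00013) and by 2.11 ± 0.30 untreated (adjusted p = 0.0031). DHCR7, an enzyme of the late steps of cholesterol synthesis, rose by 1.48 ± 0.19 with TGFb (adjusted p = 0.00037) and by 1.08 ± 0.19 untreated (adjusted p = 0.0075). Glycolysis and hypoxia genes had 10 of 23 higher and 1 lower, with a median of 0.50, and 5 were in the class that moved with time, or 10 with a replicate block. The count of higher genes was 5 without TGFb replicate 1 or day 0 replicate 3, 6 without day 0 replicate 1 or 2 and 15 without untreated day 4 replicate 1, where 2 were lower. EGLN3, an oxygen sensor, rose by 1.64 ± 0.34 with TGFb (adjusted p = 0.0042) and by 1.37 ± 0.34 untreated (adjusted p = 0.027).

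**Figure D4:**
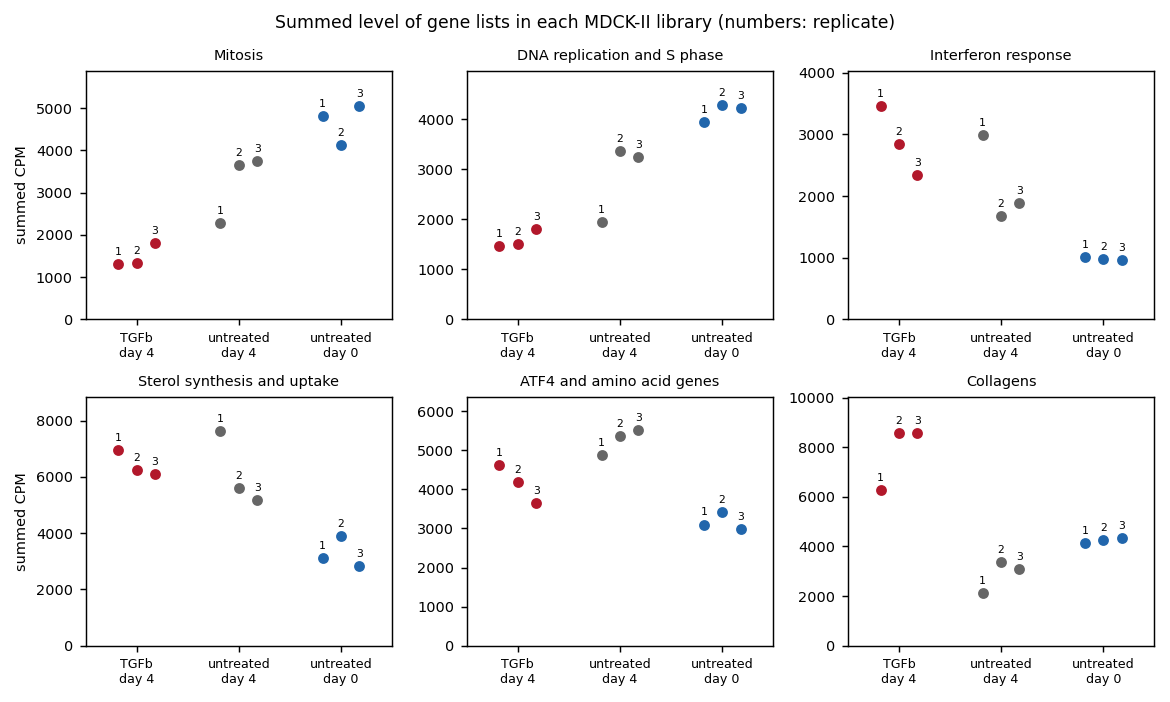
Summed CPM of the tested genes of 6 gene lists in each MDCK-II library, with the replicate number beside each dot. Mitosis and S phase sums are lowest with TGFb, sterol sums are high in both day 4 groups, ATF4 sums are highest untreated at day 4, and untreated day 4 replicate 1 lies nearest the treated libraries for mitosis, S phase and interferon genes.

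Interferon-response genes rose with 21 of 28 members, 1 lower, and a median of 1.65, beside 22.1% higher and 20.1% lower among all tested genes. In untreated cells 12 of the 28 were also higher at day 4 than at day 0, 8 were called higher between the day 4 groups (12 with a replicate block, ISG15 among the added ones) and 2 lower. Over all tested genes, 8.45% were higher in untreated cells of day 4 than at day 0. Between the day 4 groups, 16.2% of all tested genes were higher with TGFb and 14.2% lower, without a block. ISG15, a ubiquitin-like interferon-induced protein, was at 279, 179 and 121 CPM with TGFb, at 189, 38.6 and 50.7 CPM untreated at day 4 and at 11.8, 11.4 and 9.17 CPM at day 0, a rise of 4.14 ± 0.61 (adjusted p = 0.0007). OAS1, which makes the activator of RNase L, was at 284, 269 and 227 CPM with TGFb, at 144, 39.9 and 53.6 CPM untreated at day 4 and at 32, 35.4 and 30.4 CPM at day 0, and rose by 2.99 ± 0.41 (adjusted p = 0.00048). IFIT1, an antiviral protein, rose by 5.19 ± 1.02 (adjusted p = 0.0032) and by 4.03 without TGFb replicate 1, which held 70.1 CPM against 18.2 and 10.9 CPM in the others. Replicate 1 was the highest library of its day 4 group for the summed list, at 3460 CPM with TGFb, against 2840 and 2340 CPM in replicates 2 and 3, and at 2990 CPM untreated, against 1670 and 1890 CPM. The day 0 libraries held 1010, 980 and 966 CPM. What this shared order in replicate 1 contributes was not tested; 23 of the 28 were higher than at day 0 without untreated replicate 1.

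In the list of the ATF4 stress and amino acid response, 13 of 21 genes were lower with TGFb than untreated at day 4, beside 14.2% of all tested genes. Against day 0, 10 rose with TGFb and 1 fell, with a median of 0.46, while 16 rose in untreated cells with a median of 1.25. Of all tested genes, 22.1% rose and 20.1% fell with TGFb, and 8.45% rose in untreated cells. The mirror class held 5 genes of the list, ATF4 itself among these, beside 1.34% of all tested genes. DDIT3, a stress-induced transcription factor, was at 9.63, 10.2 and 10.4 CPM with TGFb, at 34.1, 24 and 26.9 CPM untreated at day 4 and at 9.47, 11.7 and 6.5 CPM at day 0, so that its treated libraries overlapped day 0 with an interval of -0.37 to 0.57. CHAC1, an enzyme that degrades glutathione, was at 73.8, 69.9 and 40.2 CPM with TGFb, at 80.9, 124 and 106 CPM untreated at day 4 and at 8.81, 10.7 and 8.79 CPM at day 0, thus above the start with TGFb (2.69 ± 0.25, adjusted p = 7.1e-05) but below untreated day 4 (-0.75 ± 0.22, adjusted p = 0.03). In all, 42 genes shared those calls, among them SESN2 and GADD45A, both stress-induced. ATF3 went the other way and was above both groups, with a rise of 2.43 ± 0.26 (adjusted p = 0.00014).

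Among the remaining genes of the mirror class, NTN4, a netrin of basement membranes, was at 8.95, 15.8 and 13.2 CPM with TGFb, at 55.2, 64.4 and 67 CPM untreated at day 4 and at 12.4, 15.8 and 12.4 CPM at day 0, with an interval of -0.53 to 0.36. The growth factor IGF2 was at 23.3, 29.5 and 22.3 CPM with TGFb, at 124, 75.4 and 63.2 CPM untreated at day 4 and at 19.1, 16.4 and 19.5 CPM at day 0. IGF2 was 0.47 ± 0.24 above day 0 (adjusted p = 0.14), with no overlap between the treated and day 0 libraries, and passed without untreated day 4 replicate 1 (0.50, adjusted p = 0.0069) and in a fit of the TGFb and day 0 libraries alone (0.46, adjusted p = 0.016). PLSCR1, a phospholipid scramblase, had a change of -0.17 ± 0.25 (adjusted p = 0.62) and was called lower without TGFb replicate 1 (-0.58, adjusted p = 0.015).

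Genes lower at day 4 in both groups included HMOX1, heme oxygenase 1, at 27.7, 41.9 and 40.2 CPM with TGFb, 22.7, 29.6 and 26.3 CPM untreated at day 4 and 213, 235 and 68.2 CPM at day 0. It fell by 2.23 ± 0.39 with TGFb (adjusted p = 0.0016) and by 2.72 ± 0.40 untreated (adjusted p = 0.0033). UGT1A6, a glucuronidation enzyme, fell by 2.72 ± 0.56 (adjusted p = 0.004).

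Tubule transport and kidney lineage lists moved in both directions. Of 13 transport genes 5 rose and 2 fell, with a median of 0.01, and of 15 lineage factors 5 rose and 2 fell, with a median of -0.03. Among all tested genes, 22.1% were higher and 20.1% lower. In each list 4 fell without untreated day 4 replicate 1. CA12, a membrane carbonic anhydrase, was at 290, 263 and 293 CPM with TGFb, at 27, 23.8 and 22.5 CPM untreated at day 4 and at 62, 59.9 and 42.6 CPM at day 0, a rise of 2.36 ± 0.15 (adjusted p = 1.3e-05). SLC12A2, a sodium-potassium-chloride cotransporter, rose by 1.74 ± 0.16 (adjusted p = 7.7e-05), and GATA3, a factor of the collecting duct lineage, by 0.88 ± 0.14 (adjusted p = 0.0011).

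Markers of other cell types were examined beside the matrix genes. Of 9 fibroblast markers, DCN, LUM, COL1A2, FAP and DPT had no count in any of the 9 libraries, and COL1A1 reached at most 0.364 CPM with TGFb, 0.0707 CPM untreated at day 4 and 0 at day 0. PDGFRA, a receptor of platelet-derived growth factor, was the only one of these markers with enough counts to be tested. It was at 50, 52 and 14.5 CPM with TGFb, at 7.98, 1.34 and 0.861 CPM untreated at day 4 and at 1.53, 0.666 and 1.02 CPM at day 0. PDGFRA rose by 5.25 ± 0.84 (adjusted p = 0.001). Of 8 endothelial markers in the table, 3 were tested and all 3 were called higher, a count that fell to 0 without day 0 replicate 2 and to 1 without day 0 replicate 1 or 3 or TGFb replicate 2 or 3. The level summed over these 3 tested markers was 341, 439 and 411 CPM with TGFb, 97.8, 141 and 162 CPM untreated at day 4 and 261, 228 and 268 CPM at day 0. It came almost wholly from FLT1, which rose by 0.64 ± 0.18 (adjusted p = 0.015). FLT1 was not called without day 0 replicate 2 or TGFb replicate 2, with adjusted p up to 0.067. VWF rose by 2.06 ± 0.62 (adjusted p = 0.024), to 1.17, 0.674 and 1.09 CPM with TGFb against 0.146, 0.25 and 0.255 CPM at day 0, and KDR rose by 1.19 ± 0.39 (adjusted p = 0.034), to 3.6, 9.35 and 9.35 CPM against 2.99, 3.29 and 3.57 CPM. PECAM1, CDH5, TEK, TIE1 and EMCN were at or near 0. PTPRC and CD3E, markers of leukocytes, had no count in any library.

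The same comparison in the MDCK-NBL2 subline, whose TGFb-treated cells are labelled full EMT, showed where the change from day 0 differed between the lines. In a model of all 24 libraries, 853 of 12466 genes (6.84%) differed between the lines in their change from day 0, and 1898 without MDCK-NBL2 untreated day 4 replicate 2, a library whose log2 CPM values correlated across genes at 0.929 and 0.91 with the other 2 of its group, which correlated at 0.955 with each other. Of 39 genes compared, which were those named throughout and those with the largest changes above, below or at the start, 38 were tested and 4 differed. The genes with the largest changes were picked from the same MDCK-II libraries that entered this test, which favours a difference, so the count is descriptive. Without MDCK-NBL2 untreated day 4 replicate 2, 10 of the 38 differed, these 4 and KRT27, COL12A1, CAPN14, WNT5B, E2F8 and GPC1, with adjusted p between 0.00061 for COL12A1 and 0.046 for CAPN14 among those added; without MDCK-NBL2 day 0 replicate 1 there were 3. IL1RL1 was at 0, 0.122 and 3.01 CPM with TGFb and at 44.6, 47.9 and 84.7 CPM at day 0 in MDCK-NBL2, where it fell by 5.79 ± 0.77, against a change of -0.31 ± 0.51 in MDCK-II in the same model. The log2 fold change was higher in MDCK-II by 5.48 ± 0.94 (adjusted p = 0.0031). MKI67 fell further in MDCK-NBL2, to 2.69, 7.43 and 17.3 CPM with TGFb against 393, 513 and 529 CPM at day 0, and the lines differed by 3.87 ± 0.92 (adjusted p = 0.018). FST, whose fall in MDCK-II is given above, was at 31.3, 30 and 45.1 CPM with TGFb and at 62.7, 35.9 and 20.1 CPM at day 0 in MDCK-NBL2, a difference between the lines of -3.04 ± 0.91 (adjusted p = 0.05). SLIT3 was low in MDCK-NBL2 with TGFb, at 3.07, 2.07 and 0.601 CPM, and the difference of 4.49 ± 1.18 (adjusted p = 0.031) did not pass without MDCK-NBL2 day 0 replicate 1 (2.71, adjusted p = 0.21). VCAN was at 794, 660 and 475 CPM with TGFb and at 686, 478 and 760 CPM at day 0 in MDCK-NBL2, and its difference between the lines was 0.10 ± 0.55 (adjusted p = 0.94). For VCAN and the other 33 tested genes the difference between the lines did not pass with all libraries, which does not show that they changed alike.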

How the data were processed

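Whole-number counts per gene, deposited by the authors for 24 mRNA libraries without normalization, were the only measurements used; MDCK-II had 3 groups of 3. Per the submitters' processing notes, STAR 2.5.3a, RSEM 1.3.0, FastQC and the dog build CanFam3.1 were used; which step each served, the annotation release and the strand setting are not given in the sources at hand. Genes that overlap or have near-identical copies may share reads. Of 32704 Ensembl genes, 18660 carried a symbol in the deposited table.

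A mean per group was fitted to the 9 MDCK-II libraries with edgeR 4.0.16 in R 4.3.3 (quasi-likelihood F test, TMM scaling, filterByExpr at a count of 10 and a total of 15, prior count 0.125). P-values were adjusted over 11902 genes by the Benjamini-Hochberg method and called under 0.05. Each SE was taken as the size of the change divided by the root of its F statistic, and intervals are 95%. Over these libraries the common coefficient of variation was 17.1%. Only this line entered, so that libraries of the other line did not set the spread. Recovery of known fold changes was tested on simulated data.

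The comparison, its classes and the 33 gene lists, with 740 distinct genes, were chosen with earlier results of these data known, so no list or class is independent support. The rule named 14 genes throughout, of which ZEB2 was too low to test. It added the largest changes of each class among genes with a symbol, a mean of 10 CPM or more where the gene was higher and libraries that did not overlap (10 genes for those above or below both untreated groups, 8 for those at the start and 6 for those that moved with time), and up to 4 called members per list with up to 2 at the start. These gave 181 tested genes, whose values are shown where they bear on a result; some of them are not reported here, while list counts still include them.

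Replicate numbers were checked as pairs. Deviations from group means of same-numbered libraries correlated at 0.44, 0.28 and 0.3 between TGFb and untreated day 4, but at -0.08, 0.01 and 0.03 between TGFb and day 0. In all MDCK-II groups, day 0 included, the number follows the run of library numbers in the titles. The low correlations therefore do not show that TGFb and day 0 libraries were unpaired. Blocked values are given between the day 4 groups where they change a call. Alternatives were DESeq2 1.42.0 (size factors, Wald test), no filter, a replicate block, all 24 libraries with and without MDCK-NBL2 untreated day 4 replicate 2, only the groups compared, each library left out, a 2-fold minimum and a narrower interval.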

Additional observations from a re-analysis of the deposited data

Results flagged for a closer look

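For 4 genes the change from day 0 with TGFb differed between the lines by a test of that difference, among 38 tested. Over all genes of that model, 853 of 12466 (6.84%) differed. Apart from those named throughout, the 38 were picked by their values in the same MDCK-II libraries, which favours a difference. The count of 4 is therefore descriptive. Without MDCK-NBL2 untreated day 4 replicate 2, 10 passed, adding KRT27, COL12A1, CAPN14, WNT5B, E2F8 and GPC1, and 3 passed without MDCK-NBL2 day 0 replicate 1. MKI67 changed by -1.82 ± 0.62 in MDCK-II and by -5.69 ± 0.76 in MDCK-NBL2, a difference of 3.87 ± 0.92 (edgeR, adjusted p = 0.018) that was 3.99 without MDCK-NBL2 day 0 replicate 1 and 3.86 without MDCK-NBL2 untreated day 4 replicate 2. IL1RL1 changed by -0.31 ± 0.51 in MDCK-II and by -5.79 ± 0.77 in MDCK-NBL2, a difference of 5.48 ± 0.94 (adjusted p = 0.0031; 5.65 and 5.48 without those libraries). FST changed by -3.20 ± 0.67 in MDCK-II and by -0.17 ± 0.64 in MDCK-NBL2, a difference of -3.04 ± 0.91 (adjusted p = 0.05, just under the threshold before rounding; 0.041 and 0.019 without those libraries). SLIT3 changed by 5.62 ± 0.85 in MDCK-II and by 1.13 ± 0.83 in MDCK-NBL2, a difference of 4.49 ± 1.18 (adjusted p = 0.031). The SLIT3 difference was 2.71 (adjusted p = 0.21) without MDCK-NBL2 day 0 replicate 1, which held 2.08 CPM of SLIT3 against 0.231 and 0.269 CPM in replicates 2 and 3 of its group.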

How the results depend on the processing

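Of the 181 tested genes under the naming rule, 147 were called against day 0, of which 140 kept the call whichever library was left out and 139 in all the other fits. None reversed in any. Many of these genes were named for a large change or a small adjusted p in the main fit, which favours stable calls. Their stability therefore does not extend to all tested genes, whose counts moved as given below. Among the other fits, those of all 24 libraries lost most calls, RRM2 (-1.49, adjusted p = 0.098) and GADD45A (0.63, adjusted p = 0.055) among them. Deviations of same-numbered TGFb and day 0 libraries hardly correlated, which does not show that they were unpaired. A replicate block gave 2743 higher and 2547 lower genes, with 1522 above both untreated groups, 190 at the start, 1192 below both, 189 in the mirror class, 544 up and 491 down with time, and 945 genes in the comparison of lines; it changed no call against day 0 among the named genes. Between the day 4 groups, whose same-numbered libraries did correlate, the block gave 2068 higher and 1795 lower genes. It added 11 calls among the 181 named genes and removed none. The added ones were SNAI2 (1.52, adjusted p = 0.028), CCN2 (1.08, adjusted p = 0.013), TGFBR1 (0.34, adjusted p = 0.033), SOX4, INSIG1, ISG15, DDX60, NFATC4, PLXNA4, DSN1 and BHLHE40. The fit of the TGFb and day 0 libraries alone added SNAI1, EDN1 and IGF2 against day 0. All 24 libraries gave 664 genes below both untreated groups. With a 2-fold minimum there were 1122 higher and 563 lower genes, 578 above both, 22 at the start, 276 below both, 22 in the mirror class, 174 up and 22 down with time. An interval inside -0.5 to 0.5 left 89 genes at the start and 91 in the mirror class. With each library left out in turn, higher genes ranged from 1922 to 3608, lower from 1492 to 2963, above both from 989 to 2245, at the start from 53 to 196, below both from 635 to 1932, the mirror class from 65 to 238, up with time from 199 to 601 and down with time from 84 to 470. In the comparison of lines, genes ranged from 760 without MDCK-NBL2 day 0 replicate 1 to 1898 without MDCK-NBL2 untreated day 4 replicate 2. In the receptor, integrin, Wnt, folding and tubule transport lists, the 2 genes lower than at day 0 became 1 without day 0 replicate 1 and without 1 to 6 other libraries in turn, through ACVR1B, ITGA9, ZNRF3, HSP90B1 and SLC6A12. The single lower gene of the EMT factor, mesenchymal, glycolysis, interferon and YAP lists (FOXC2, S100A4, PFKP, IDO1 and AJUBA) was not called without day 0 replicate 1 and without 1 to 4 others in turn, while TAP1 without TGFb replicate 2 and CRIM1 without TGFb replicate 3 were further lower genes; these names were taken after their values were seen. The cause of these shifts was not tested, beyond fewer libraries in the fit. An alternative on sequence motifs was not run, since no promoter sequence was used here. Depth limits genes of a few counts such as ZEB2.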
